A study of Mus musculus with 26 samples.

Results

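Immediate early genes are switched on within minutes of a stimulus from factors that are already in the cell, so their transcripts mark what a cell met shortly before its RNA was taken. Serum response factor with its Ets partners and the CREB family, which act downstream of the MAP kinases, read the stimulus at their promoters, and many of the products, above all the Fos and Jun proteins that pair to form AP-1, are themselves transcription factors. They are also known to rise while a tissue is minced and digested with collagenase, which is how adipocytes and stromal vascular cells are prepared from fat. The 10 genes described here were chosen by symbol because they are known for this rise: the AP-1 subunits Fos, Fosb, Jun and Junb, the transcription factors Egr1, Atf3 and Nr4a1, the nuclear protein Ier2, and the feedback inhibitors Dusp1 and Zfp36. All 10 were found among the 39017 genes of the count tables, and all 10 passed the filter on low counts in both fractions.

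The mice were male wild type C57BL/6J that started their diets at an age of 9 to 10 weeks and ended lean, obese or formerly obese. LFD mice ate a 10% fat diet for 12 weeks, HFD mice a 60% fat diet for 12 weeks, and SW mice the 60% fat diet for 9 weeks and then the 10% fat diet for 3 weeks. Epididymal fat of every group was minced and digested with collagenase at 1 mg/ml for 30 min, passed through a 100 μm filter and spun at 500 g, which left adipocytes floating and stromal vascular cells (SVCs) in the pellet. SVCs alone then went through red cell lysis and another spin at 300 g, so fraction and handling cannot be told apart. RNA sequencing gave 15 libraries that could be tied to a group: 3 LFD, 3 HFD and 3 SW libraries of adipocytes, and 1 LFD, 2 HFD and 3 SW libraries of SVCs. Libraries are called here by the number in the count table. No label ties that number to a mouse or links the fractions, so p-values measure only the spread between these libraries. No undigested fat was among the samples, so how much of any level below arose during digestion was not tested.

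Adipocyte libraries held 6142895 to 23725647 counts and SVC libraries 5781902 to 22195810. The 10 genes were well covered, from 81 counts (Atf3 in LFD adipocyte library 406) to 27747 counts (Fos in HFD SVC library 212). Levels are CPM, counts relative to the library total, scaled within each fraction by the TMM method. All 8 adipocyte markers were lower in SVCs than in adipocytes in both HFD and SW mice, where 12.9% and 32.8% of all genes tested were lower. Of 8 macrophage markers, which both fractions carried, 7 were higher in SVCs in SW mice, where 35.6% of all genes were higher, and 2 in HFD mice, where 16.2% were, or 4 without SVC library 212 and 1 without SVC library 411 (edgeR's quasi-likelihood test, Benjamini-Hochberg adjusted p under 0.05).

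Some libraries stood apart from others of their group. The HFD SVC libraries 212 and 411 gave a chi-square of 376 for each degree of freedom, against 25.5 to 59.9 between SW SVC libraries. Mitochondrial transcripts made up 6.34% of the counts in library 212 and 33.5% in library 411, and hemoglobin transcripts 0.287% and 3.09%. Among adipocytes, SW library 407 differed from libraries 408 and 409 with values of 89.5 and 80.4, whereas 408 and 409 differed by 12.8. Calls on the 10 genes that rest on libraries 212, 411 or 407 are given with and without them.

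The sequences before the start sites show what the genes share in their promoters. RefSeq windows of 250 bases before the start (GRCm38.p6) matched 8 of the 10 genes, all but Egr1 and Ier2. Of these, 5 are shown because their transcripts carried the largest diet change (Atf3), the highest level per length in adipocytes (Fos), the widest swings between libraries of a group (Fosb, Nr4a1) or a full cAMP response element (Dusp1). Each is written 5′ to 3′ on the gene's strand and ends at the base before the start, except that of Dusp1, where the 47 bases nearest the start lie in an annotated exon and were left out. In the GENCODE annotation of the same build the Fos window lay outside the gene, and those of Atf3, Nr4a1 and Dusp1 lay within the span of their own genes. The last 7 bases of the Atf3 window, which hold its core, and the last 6 of the Fosb window lie in annotated exons. Capitals mark the core of the cAMP response element, TGACG or CGTCA on the other strand, the full element TGACGTCA, and the TATA box TATAAA.
Fos (chr12:85473640-85473889, plus strand): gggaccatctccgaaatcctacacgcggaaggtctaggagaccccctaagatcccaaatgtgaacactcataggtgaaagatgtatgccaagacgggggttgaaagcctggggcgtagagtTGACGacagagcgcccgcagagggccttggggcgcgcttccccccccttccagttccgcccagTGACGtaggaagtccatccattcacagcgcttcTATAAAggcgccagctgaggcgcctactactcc
Fosb (chr7:19310046-19310295, minus strand): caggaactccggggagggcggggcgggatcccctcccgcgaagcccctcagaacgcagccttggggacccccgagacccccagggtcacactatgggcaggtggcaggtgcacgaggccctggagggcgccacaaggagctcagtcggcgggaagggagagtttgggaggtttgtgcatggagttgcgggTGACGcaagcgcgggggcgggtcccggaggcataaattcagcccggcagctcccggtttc
Atf3 (chr1:191183334-191183583, minus strand): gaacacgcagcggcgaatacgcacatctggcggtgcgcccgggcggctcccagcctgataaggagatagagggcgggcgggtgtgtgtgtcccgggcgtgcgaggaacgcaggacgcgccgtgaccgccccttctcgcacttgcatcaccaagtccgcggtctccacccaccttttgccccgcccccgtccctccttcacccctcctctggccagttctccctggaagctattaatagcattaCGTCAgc
Nr4a1 (chr15:101266596-101266845, plus strand): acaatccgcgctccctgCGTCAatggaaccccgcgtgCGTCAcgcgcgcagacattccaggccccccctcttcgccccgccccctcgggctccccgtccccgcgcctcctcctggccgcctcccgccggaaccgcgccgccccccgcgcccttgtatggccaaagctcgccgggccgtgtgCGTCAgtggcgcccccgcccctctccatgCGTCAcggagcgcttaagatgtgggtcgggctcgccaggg
Dusp1 (chr17:26508520-26508722, minus strand): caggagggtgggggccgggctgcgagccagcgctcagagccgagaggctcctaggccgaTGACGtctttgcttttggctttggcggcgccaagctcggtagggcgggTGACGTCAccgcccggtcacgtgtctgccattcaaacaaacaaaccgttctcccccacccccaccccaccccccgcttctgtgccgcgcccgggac
The core was in 6 of the 8 windows (Fos, Fosb, Junb, Atf3, Nr4a1 and Dusp1) and in 17.8% of the 32851 RefSeq promoter windows of the same length. The Nr4a1 window held it 4 times, at 233, 213, 69 and 40 bases before the start. The full element, which contains the core on both strands, was in the Dusp1 window only, between 143 and 136 bases before the start, and in 1.55% of all windows. A CArG box, the serum response factor motif, was in the Zfp36 window, from 58 to 49 bases before the start, and in 1.47% of all windows; all 250 bases of the Zfp36 window lie in annotated exons of the gene. TATAAA was in the Fos window and in 12.4% of all, and the AP-1 site, TGACTCA or TGAGTCA, was in 0 of the 8 and in 4.46% of all. These are matches of letters on both strands in a short window, not mapped binding sites, and nothing about these factors follows from a window without a match.

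Levels of different genes were compared per kilobase of the longest GENCODE transcript. In adipocytes of LFD mice, Fos was the most abundant, with a mean of 94.5 CPM per kb (53.5 to 156 over 3 libraries). Jun (75.1), Dusp1 (72.4), Zfp36 (71.6) and Ier2 (69.8 CPM per kb) followed and overlapped with Fos and with each other. Junb stood at 48.4 and Egr1 at 33.1 CPM per kb. Atf3 (8.62), Fosb (7.53) and Nr4a1 (6.66 CPM per kb) formed a lower tier: the highest library of Atf3 reached 13.9, that of Fosb 14.1 and that of Nr4a1 9.13 CPM per kb, all below the lowest library of Egr1 at 20.0. In adipocytes of HFD mice Atf3 was the gene ranked 3, at 110 CPM per kb (96.6 to 132), behind Fos at 256 and Dusp1 at 152, but its libraries overlapped with those of Dusp1 (99.8 to 190), Zfp36 (80.3 to 130), Junb (74.6 to 127) and Jun (54.3 to 114 CPM per kb), while Fosb (7.41) and Nr4a1 (6.76 CPM per kb) still closed the order.

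In adipocytes, 4 of these genes were higher in obese than in lean mice, Atf3 by far the most. The comparison asks how the transcripts differed between obese and lean mice after the same digestion. Of the 10 genes, 4 rose in HFD against LFD mice (Atf3, Fos, Dusp1 and Junb) and 0 fell, where 51.5% of the 14461 genes tested passed, 26.5% higher and 25.0% lower (edgeR's quasi-likelihood test, adjusted p under 0.05). The median log2 fold change was 0.45 over the 10 and -0.03 over all genes tested. For 4 of the 10 the ranges of the diet groups were separate, as was the case for 62.7% of all genes tested.

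Atf3, a stress-induced member of the ATF/CREB family, changed the most. LFD libraries 404, 405 and 406 had 27.6, 13.0 and 10.7 CPM, and HFD libraries 401, 402 and 403 had 262, 192 and 201 CPM. Every HFD library was thus far above every LFD library. The log2 fold change was 3.70 (SE 0.32), a 13.0-fold difference, with an edgeR adjusted p of 1.94e-05.

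Fos, the AP-1 subunit most used as a mark of recent stimulation, had 330, 155 and 113 CPM in LFD libraries 404 to 406 and 725, 515 and 377 CPM in HFD libraries 401 to 403. The groups did not overlap, and the log2 fold change was 1.44 (SE 0.39, edgeR adjusted p = 0.0114). Dusp1, the phosphatase that switches MAP kinases off again, had a mean of 167 ± 42.4 CPM in LFD and 352 ± 108 CPM in HFD libraries (SD, n = 3 each). Its log2 fold change was 1.07 (SE 0.27), with an edgeR adjusted p of 0.00809. Junb, an AP-1 subunit that can restrain Jun, had 87.6 ± 39.7 and 178 ± 48.2 CPM (SD, n = 3 each), a log2 fold change of 1.02 (SE 0.33, edgeR adjusted p = 0.0255). The call of Junb was lost without HFD library 401, or without LFD library 405 or 406, with edgeR adjusted p-values from 0.0580 to 0.0831.

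The other 6 did not pass the test between obese and lean mice. Zfp36, or tristetraprolin, which speeds the decay of cytokine transcripts, had a log2 difference of 0.60 (edgeR adjusted p = 0.112); without LFD library 404 it passed, at 0.88 (edgeR adjusted p = 0.0373). Jun, Egr1, Fosb and the nuclear receptor Nr4a1 had values between 0.00 and 0.31, with overlapping groups. Ier2 was the sole gene with a negative value, -0.48 (edgeR adjusted p = 0.135): its HFD libraries had 95.1, 83.0 and 49.8 CPM and its LFD libraries 135, 103 and 80.3 CPM. LFD library 404 was the highest of the LFD libraries for all 10 genes, which widened the LFD groups.

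**Figure D1:**
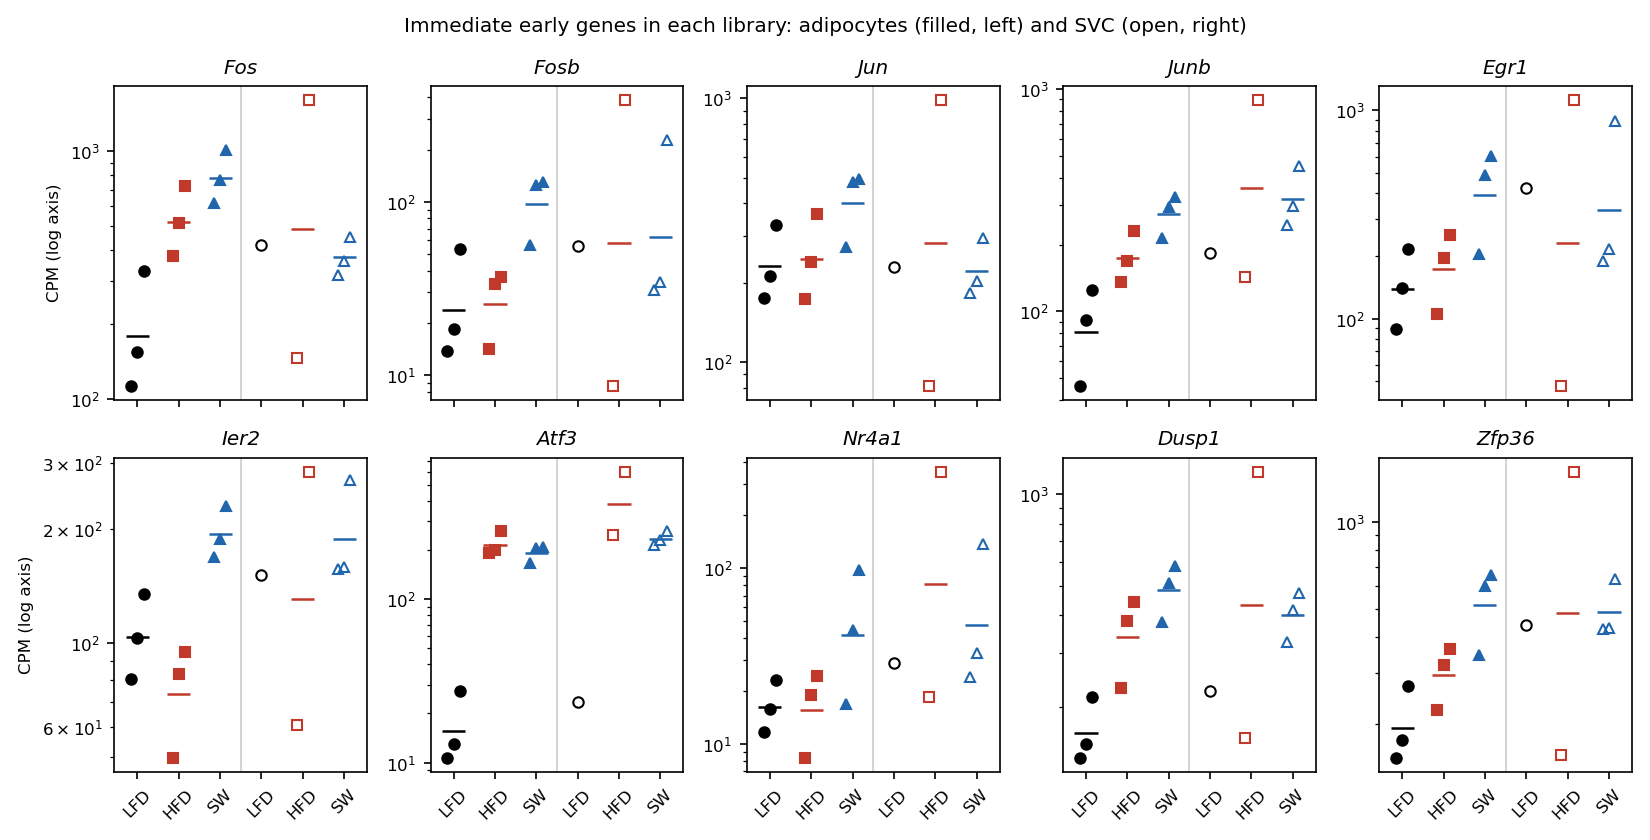
Level of each gene in every library, in CPM on a log axis, for LFD (black circles), HFD (red squares) and SW (blue triangles) mice, with adipocytes filled on the left and SVCs open on the right of each panel; horizontal lines are geometric means of groups with more than 1 library. Atf3 is low in all 4 LFD libraries, at 10.7 to 27.6 CPM. The HFD SVC libraries lie far apart for the other genes and closer for Atf3, at 601 and 248 CPM.

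Most of the 10 genes were higher in adipocytes of formerly obese than of lean mice. Against LFD mice, 8 of the 10 genes rose in SW mice (all but Jun and Nr4a1) and 0 fell, where 17.1% of all genes tested passed, 10.9% higher and 6.18% lower (edgeR's quasi-likelihood test, adjusted p under 0.05). All 10 log2 fold changes were positive, with a median of 1.61 against 0.00 over all genes tested. The groups did not overlap for 7 of the 10, as for 36.7% of all genes tested. This comparison uses the LFD libraries of the comparison above again, so the results are not independent of each other.

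Atf3 remained near its level in obese mice, with 168, 206 and 209 CPM in SW libraries 407, 408 and 409. The log2 fold change against LFD was 3.53 (SE 0.32), an 11.6-fold difference (edgeR adjusted p = 7.76e-05). Fos had 616, 1009 and 765 CPM in the same libraries, all above the LFD maximum of 330 CPM. Its log2 fold change was 2.002 (SE 0.40, edgeR adjusted p = 0.00665). Junb, at 215, 296 and 327 CPM, had a log2 fold change of 1.67 (SE 0.34, edgeR adjusted p = 0.0071).

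The inhibitors rose too. Dusp1 had 380, 579 and 511 CPM in SW libraries 407 to 409, a log2 fold change of 1.55 (SE 0.27, edgeR adjusted p = 0.00363). Zfp36 had 347, 658 and 602 CPM, a log2 fold change of 1.42 (SE 0.30, edgeR adjusted p = 0.00882). Neither overlapped with its LFD libraries, which reached 216 CPM for Dusp1 and 271 CPM for Zfp36.

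Fosb, Egr1 and Ier2 passed the threshold by less. Fosb had 56.3, 125 and 131 CPM in SW against 53.4, 18.3 and 13.7 CPM in LFD libraries (log2 fold change 1.90, SE 0.55, edgeR adjusted p = 0.0412). Egr1, the zinc finger factor of growth responses, had 203, 489 and 607 CPM and overlapped with LFD library 404 at 215 CPM (log2 fold change 1.55, SE 0.45, edgeR adjusted p = 0.0411). Ier2 had a log2 fold change of 0.89 (SE 0.25, edgeR adjusted p = 0.038). These 3 calls were the least stable: without LFD library 405 or 406, or SW library 408 or 409, 5 of the 10 genes rose (Atf3, Fos, Junb, Dusp1 and Zfp36). Fosb also missed the threshold without HFD library 401 or 402, with edgeR adjusted p-values of 0.0651 and 0.0527, and Egr1 without HFD library 402 (0.0583). With all libraries kept, Fosb lost its call with upper-quartile factors, without a filter, with only the groups compared and with libraries thinned to equal depth (edgeR adjusted p up to 0.155), and Egr1 with limma-voom and without a filter (adjusted p up to 0.127). Without SW library 407, 9 rose, Nr4a1 among them at a log2 fold change of 2.08.

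Jun and Nr4a1 had log2 differences of 0.80 (edgeR adjusted p = 0.130) and 1.67 (edgeR adjusted p = 0.0839). Nr4a1 varied most within the group, with 16.9, 44.7 and 98.1 CPM in SW libraries 407, 408 and 409. SW library 407 had the lowest level of the 3 SW libraries for all 10 genes.

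**Figure D2:**
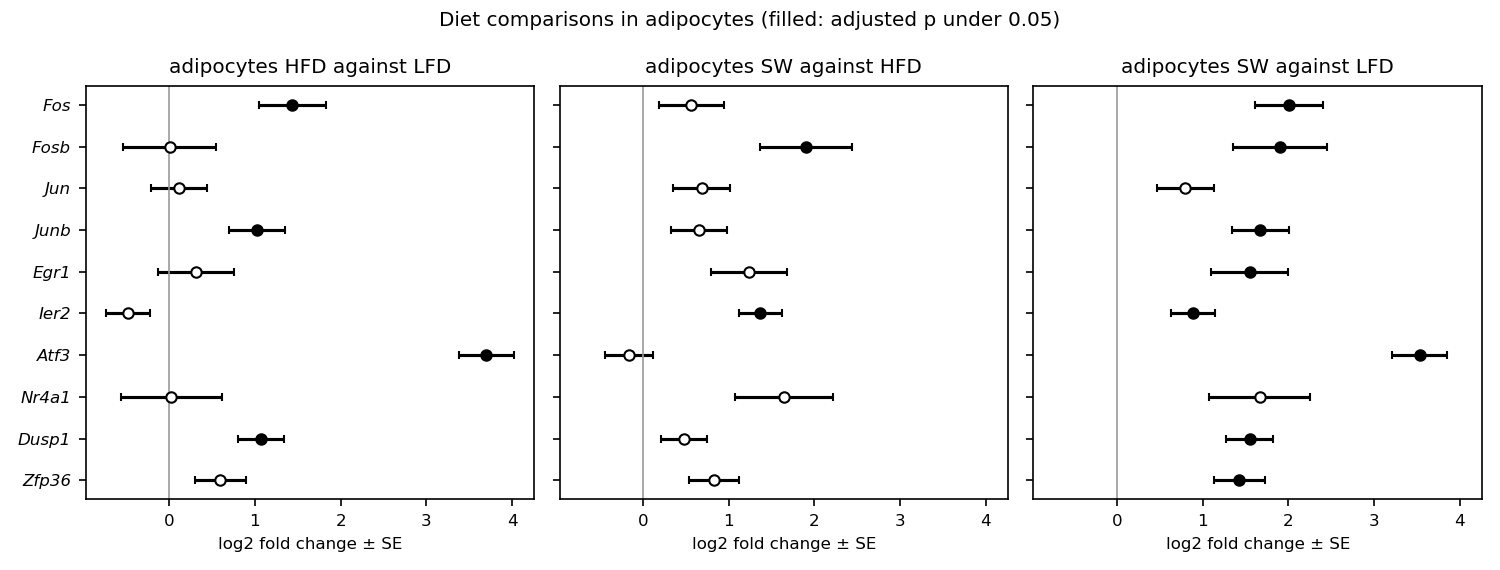
log2 fold change of each gene in adipocytes with its standard error (bars), for HFD against LFD, SW against HFD and SW against LFD mice, 3 libraries per group; filled points passed an adjusted p of 0.05. Atf3 lies at 3.70 and 3.53 against LFD and at -0.17 between SW and HFD, while Ier2 and Fosb passed between SW and HFD.

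Between formerly obese and obese mice, Ier2 and Fosb rose and the other 8 did not pass the test. Of the 10 genes, 2 were higher and 0 lower in SW than in HFD mice, where 31.4% of all genes tested passed, 15.6% higher and 15.9% lower (edgeR's quasi-likelihood test, adjusted p under 0.05). Ier2 had 169, 188 and 231 CPM in SW libraries, all above the highest HFD library at 95.1 CPM, a log2 fold change of 1.37 (SE 0.26, edgeR adjusted p = 0.00693). Fosb had 56.3 to 131 CPM in SW and 14.0 to 36.6 CPM in HFD libraries, a log2 fold change of 1.90 (SE 0.54, edgeR adjusted p = 0.0269). These 2 were also the genes whose groups did not overlap, as for 48.6% of all genes tested.

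Nr4a1 (log2 difference 1.64, edgeR adjusted p = 0.0542), Zfp36 (0.83, 0.0544) and Egr1 (1.24, 0.0582) lay just outside the threshold. Without SW library 407 they passed it, which made 5 higher genes, and the same number passed with DESeq2. Without HFD library 401 or 403, or SW library 408 or 409, Ier2 alone passed. With all libraries kept but no filter, Ier2 also passed alone, and Fosb missed the threshold (edgeR adjusted p = 0.106). Atf3 differed by -0.17 (SE 0.28, edgeR adjusted p = 0.672). The median log2 fold change was 0.76 over the 10 and 0.01 over all genes tested.

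The proportion of Atf3 to the other 9 genes separated the LFD libraries from the rest. Within a library, its counts can be set against the geometric mean of the other 9, a ratio that does not depend on scaling. In LFD adipocytes the ratio was 19.0%, 14.7% and 16.3% (libraries 404 to 406), and in the LFD SVC library 13.1%. In HFD adipocytes it was 148%, 130% and 232% (libraries 401 to 403), and in SW adipocytes 95.6%, 65.9% and 60.8% (libraries 407 to 409). SVCs had 77.1% and 384% in HFD libraries 212 and 411, and 62.2%, 166% and 128% in SW libraries 413, 414 and 412. All 4 LFD libraries lay below all 11 others in both fractions. This ratio was chosen after the levels had been seen, so it describes these libraries and carries no test.

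**Figure D3:**
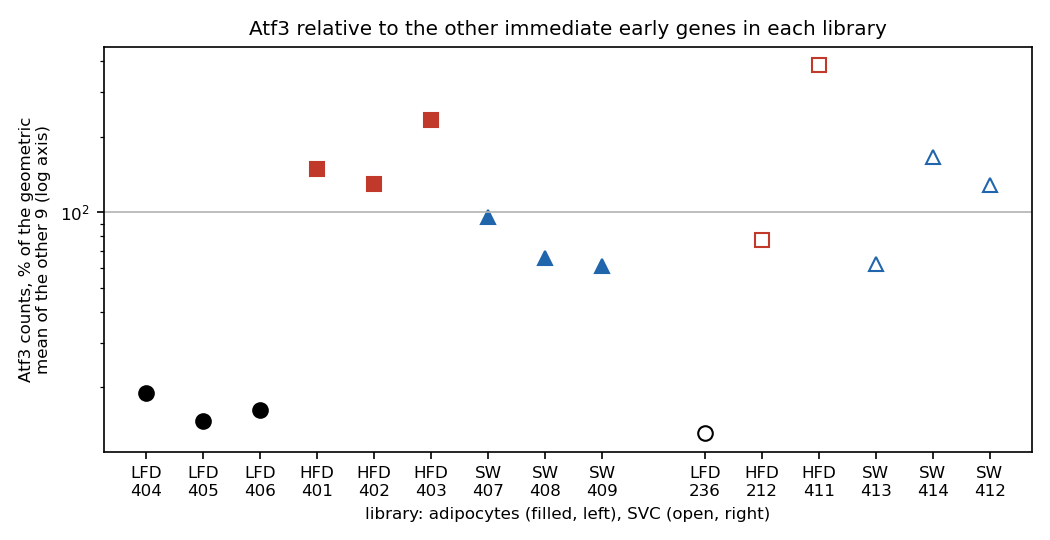
Atf3 counts as a percentage of the geometric mean of the other 9 genes in the same library, on a log axis, for each adipocyte library (filled) and SVC library (open), with the library number under its diet group; the grey line marks 100%. The 4 LFD libraries lie between 13.1% and 19.0% and the other 11 between 60.8% and 384%.

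Libraries of a group differed more in these genes than in most others. The median within-group SD of log2 CPM in adipocytes was 0.506 over the 10, against 0.238 over all genes tested and 0.178 over the 6294 genes in the same range of mean level. Nr4a1 (0.910), Fosb (0.836) and Egr1 (0.711) had the widest spread, and Ier2 (0.380) and Dusp1 (0.392) the narrowest. Egr1 had at least 679 counts in every adipocyte library.

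The genes also moved together within groups. Deviations from the group means in the 9 adipocyte libraries had a positive Pearson correlation in 45 of 45 pairs of the 10 genes, from 0.535 (Atf3 with Nr4a1) to 0.964, with a median of 0.860; the mean over all pairs of genes tested was 0.00366. These points share library and depth, and 6 degrees of freedom remain after the group means, so the values are a description. Positive and negative correlations cancel in the mean over all pairs, so that mean does not show how large a single correlation usually was. Centred over the 10 genes, the libraries ran from 404 down to 406 in LFD, from 401 down to 403 in HFD and from 409 down to 407 in SW mice.

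The genes most like the 10 over the libraries were taken from a ranking of all genes, so high correlations follow from that choice. Group means were not removed here, so differences between diet groups, and between fractions where both were used, enter the values. Among the 12440 genes whose log2 CPM averaged 1 or more, Nfkbiz, an inducible regulator of NF-kB, had the highest correlation with the centred mean of the 10 over the 9 adipocyte libraries outside the list itself (r = 0.990). It was followed by Socs3 (0.962), an inhibitor of cytokine signalling, Ppp1r15a (0.961), Cxcl1 (0.958), Mcl1 (0.925), Cxcl2 (0.904), Ccrl2 (0.903), Tnfaip3 (0.897), Zfand5 (0.896) and Klf6 (0.870). Over all 15 libraries and 12270 genes the list was led by Ppp1r15a (0.927), Has1 (0.909), Socs3 (0.891), Ccrl2 (0.890) and Tnfaip6 (0.887). Of the 10 genes themselves, Zfp36 lay closest to their mean in both rankings (0.992 and 0.981), and Ier2 (0.723) in adipocytes and Atf3 (0.689) over all libraries lay farthest from it. Each of the 10 is itself part of that mean, which raises its value, so these values cannot be set against those of the other genes.

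Further primary response genes, a list of 36 of which 35 were tested, passed in both directions in obese mice. Between HFD and LFD adipocytes 6 rose and 8 fell, where 26.5% of all genes tested rose and 25.0% fell, with a median log2 fold change of -0.16 (edgeR's quasi-likelihood test, adjusted p under 0.05). Egr2, a relative of Egr1, rose by a log2 fold change of 3.10 (SE 0.35), Gadd45b by 1.77 (SE 0.20) and Dusp5, a nuclear ERK phosphatase, by 1.68 (SE 0.21), while Klf2, a zinc finger factor of endothelial and immune cells, fell (log2 fold change -1.70, SE 0.17). In SW against LFD mice 8 rose and 0 fell, where 10.9% of all genes tested rose and 6.18% fell, among them Egr2 (2.89), Socs3 (2.26), Gadd45b (1.93) and Dusp5 (1.70). In SW against HFD mice 14 rose and 0 fell, where 15.6% rose and 15.9% fell, among them Klf2 (1.61), Gadd45g (1.43), Cebpd (1.36) and Dusp2 (1.30); without HFD library 403, SW library 408 or SW library 409 the count was 8, 8 and 9.

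Of 12 NF-kB inducible genes, many of which encode cytokines, 6 rose and 0 fell in HFD against LFD adipocytes, where 26.5% of all genes tested rose. In SW against LFD mice 7 rose and 0 fell, where 10.9% rose, and in SW against HFD mice 3 rose and 0 fell, where 15.6% rose (edgeR's quasi-likelihood test, adjusted p under 0.05). The neutrophil chemoattractant Cxcl2 had log2 fold changes of 4.60 (SE 0.59) in HFD and 6.00 (SE 0.59) in SW against LFD mice, and Tnf, a target of Zfp36, 2.25 (SE 0.32) and 2.61 (SE 0.33). Cxcl1 rose by 2.04 and 3.26, and Il6 by 3.51 in SW against LFD mice. Between SW and HFD mice the count was 0 without HFD library 403 or SW library 408, 1 without SW library 409, 2 without HFD library 402 or LFD library 405 and 6 without SW library 407.

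Of 12 heat shock genes, the chaperones of the stress response, 2 fell in HFD against LFD adipocytes, where 25.0% of all genes tested fell, Hspb1 (log2 fold change -1.85, SE 0.26) and Hspa1b (-1.40, SE 0.52), and 1 without HFD library 401, 402 or 403 or LFD library 406. In SW against LFD mice 0 passed an adjusted p of 0.05 with edgeR and 1 an unadjusted p of 0.05. In SW against HFD mice 3 rose, where 15.6% of all genes tested rose, Hspb1 (1.32), Dnajb1 (0.74) and Hspe1 (0.72), and 1 without HFD library 401 or 403. The summed level of the list was 4055 to 5195 CPM in LFD, 4165 to 5078 CPM in HFD and 4081 to 4965 CPM in SW adipocytes, with overlapping groups.

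Macrophage markers moved with the diet groups in the adipocyte fraction, beside the immediate early genes. All 8 rose in HFD and in SW against LFD mice, where 26.5% and 10.9% of all genes tested rose, and 3 fell and 0 rose in SW against HFD mice, where 15.9% fell. Of the 8, 0 were at 0 in any library, and Lyz2 was the most abundant. Their summed level was 461 to 820 CPM in LFD, 6442 to 7600 CPM in HFD and 4444 to 6096 CPM in SW libraries. In bulk samples, fewer cells of a type and less RNA per cell cannot be told apart, and the part of macrophages in the levels of the 10 genes was not tested. Within the LFD group, library 404 was the highest both for the markers, at 820 CPM, and for Fos and Atf3, whereas in SW mice library 407 had the most marker counts, 6096 CPM, and the lowest levels of all 10 genes. The LFD SVC library had 4117 CPM of the markers and 23.4 CPM of Atf3, while the SW adipocyte libraries had 4444 to 6096 CPM of the markers and 168 to 209 CPM of Atf3. The marker sums of the fractions were scaled separately. Adipocyte markers were 28329 to 38252 CPM in LFD, 11378 to 19077 CPM in HFD and 24905 to 26199 CPM in SW adipocyte libraries.

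**Figure D4:**
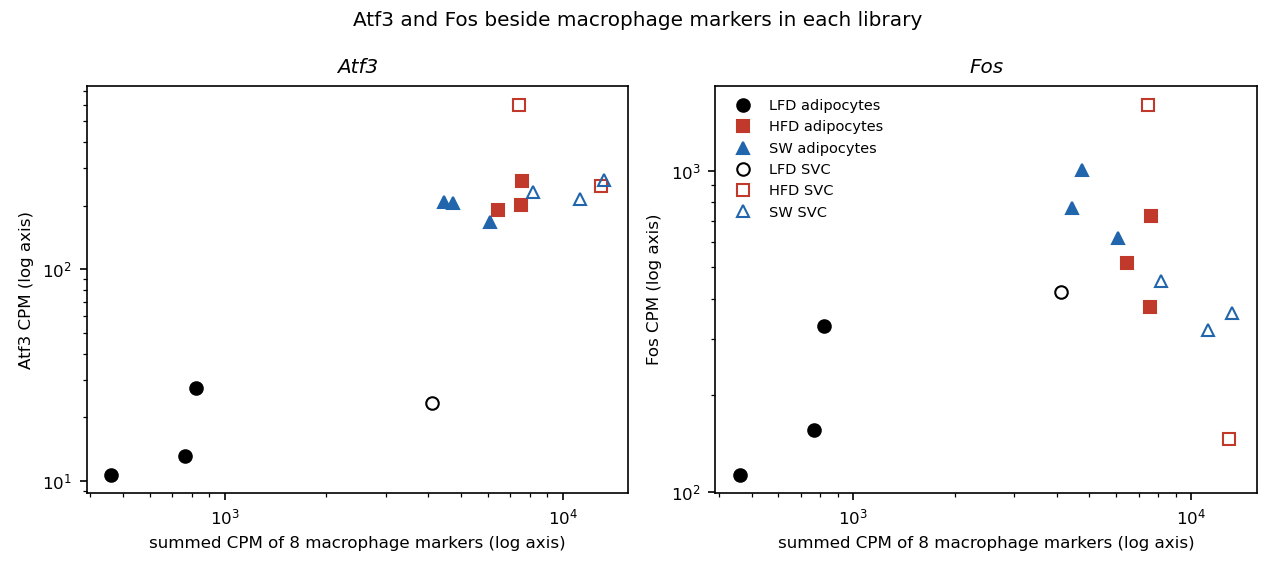
Atf3 (left) and Fos (right) level in CPM against the summed CPM of 8 macrophage markers in each of the 15 libraries, both on log axes, with adipocyte libraries filled and SVC libraries open. The LFD adipocyte libraries are low for the markers and Atf3, but Fos in LFD library 404 (330 CPM) lies above SVC libraries 412 (318 CPM) and 411 (146 CPM). The LFD SVC library, at 4117 CPM of the markers, has 23.4 CPM of Atf3 and 420 CPM of Fos.

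In SVCs, the comparison of SW with HFD mice rested on 2 HFD libraries that lay far apart. Of the 6 SVC libraries, 212 had the highest level for all 10 genes and 411 the lowest for 9, all but Atf3. Library 212 had 1609 CPM of Fos, 385 of Fosb, 1118 of Egr1 and 352 of Nr4a1, and library 411 had 146, 8.62, 47.5 and 18.6 CPM of the same genes. All 3 SW libraries lay between them for these 4 genes. The ratio of library 212 to library 411 was 44.7 for Fosb, 23.5 for Egr1, 18.9 for Nr4a1, 12.1 for Jun, 10.996 for Fos and 9.51 for Zfp36, and least for Atf3, at 2.42. The median log2 ratio was 3.35 over the 10 genes and 0.05 over all genes tested, and every one of the 10 lay above the percentile 91.8 of all genes. The LFD library 236 lay between libraries 212 and 411 for 9 of the 10 genes. The exception was Atf3, at 23.4 CPM against 248 CPM in library 411. With 1 LFD library in this fraction, differences from LFD mice have no replicate check and were not tested.

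Of the 10 genes, 0 differed between SW and HFD SVCs with edgeR's quasi-likelihood test, and 0 had an unadjusted p under 0.05; 17.5% of the 16319 genes tested passed, 5.71% higher and 11.7% lower. The groups overlapped for all 10 and were separate for 58.6% of all genes tested. DESeq2 and limma-voom also called 0 of the 10. The log2 differences ranged from -1.51 (Nr4a1, SE 1.19) to 0.19 (Ier2, SE 0.63). Without library 411, 6 of the 10 were lower in SW mice: Jun (log2 fold change -2.11), Fos (-2.09), Zfp36 (-1.57), Dusp1 (-1.54), Junb (-1.42) and Atf3 (-1.34), with edgeR adjusted p-values from 0.0113 to 0.0310. Without library 212, all 10 values were 0.00 or higher, up to 3.57 for Fosb, and 0 passed, with edgeR adjusted p-values from 0.0591 upward. In both cases the lone HFD library was assumed to vary like the other groups. The direction in SVCs was thus set by which HFD library was kept.

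**Figure D5:**
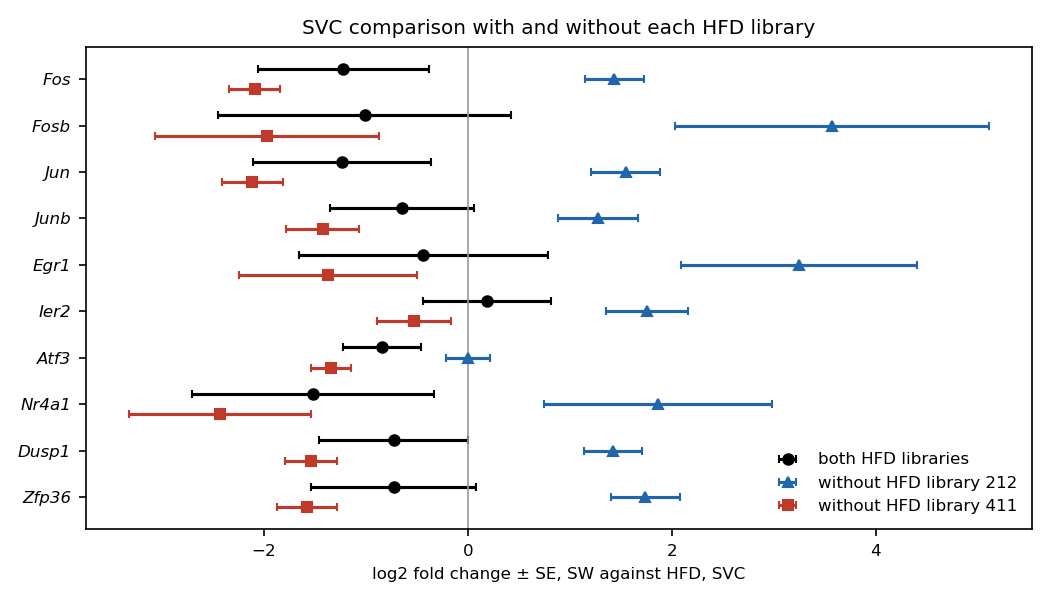
log2 fold change of each gene between SW and HFD SVCs with its standard error (bars), from all libraries (black circles), without HFD library 212 (blue triangles) and without HFD library 411 (red squares). Fos lies at -1.22 with both, at 1.44 without library 212 and at -2.09 without library 411.

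SW SVC libraries differed less, except for library 413. It had 887 CPM of Egr1 against 217 and 190 in libraries 414 and 412, 227 CPM of Fosb against 34.4 and 30.7, and 137 CPM of Nr4a1 against 24.1 and 33.1. Atf3 was almost level in the group, at 231, 264 and 215 CPM. The within-group SD of log2 CPM in SVCs was 1.39 as a median of the 10 genes, against 0.425 over all genes tested. Over the 3 SW libraries alone, a choice made after seeing the data, the medians were 0.404 and 0.297, and Fosb (1.62), Nr4a1 (1.33) and Egr1 (1.23) had the widest spread of the 10.

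Between SVCs and adipocytes, 5 of the 10 genes passed the test in HFD mice and 0 in SW mice. These comparisons use 1 scale for all 15 libraries. In SW mice 0 of the 10 differed between SVCs and adipocytes with edgeR's quasi-likelihood test, where 68.4% of the 17441 genes tested did (35.6% higher in SVCs, 32.8% lower), and 1 had an unadjusted p under 0.05; DESeq2 and limma-voom each called 1. That gene was Atf3, with 283, 315 and 253 CPM in SVC and 149, 184 and 187 CPM in adipocyte libraries, a log2 difference of 0.71 (SE 0.32, edgeR adjusted p = 0.0643). It was also the 1 gene of the 10 whose fractions did not overlap, as for 70.8% of all genes tested. The other 9 had log2 differences between -0.66 (Fos, SE 0.60) and 0.72 (Nr4a1, SE 0.90). Standard errors ran from 0.32 (Atf3) to 1.02 (Fosb), which limits what could be detected gene by gene. Atf3 passed without LFD adipocyte library 404 or HFD SVC library 212, with edgeR adjusted p-values of 0.0258 and 0.0275.

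In HFD mice, 5 of the 10 were higher in SVCs than in adipocytes and 0 lower, where 29.1% of all genes tested passed, 16.2% higher and 12.9% lower: Nr4a1 (log2 fold change 3.68, SE 1.04), Junb (1.80, SE 0.55), Zfp36 (1.70, SE 0.59), Ier2 (1.45, SE 0.46) and Atf3 (1.25, SE 0.35), with edgeR adjusted p-values from 0.0182 to 0.0455. The fractions did not overlap for Atf3 and Nr4a1, as for 51.5% of all genes tested. These calls depended on single libraries. Without SVC library 212, 0 were higher and Fos was lower (log2 fold change -1.49, edgeR adjusted p = 0.0462), and without library 411 all 10 were higher, the lone HFD SVC library being assumed in both fits to vary like the other groups. Without adipocyte library 402 or 403, 0 of the 10 passed, with edgeR adjusted p-values of 0.0580 or more. Zfp36 kept its call in 2 of 15 fits that each left out 1 library, without SVC library 236 or 411, and the other 4 in 12 of 15. With all libraries kept, 1 of the 10 passed with limma-voom, 1 without a filter and 0 with only the groups compared.

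Whether the change from HFD to SW mice differed between fractions was tested directly. With edgeR's interaction term 0 of the 10 passed, where 27.1% of all genes tested did (11.4% higher, 15.7% lower), and 1, Nr4a1, had an unadjusted p under 0.05 (log2 difference -2.96, SE 1.35, edgeR adjusted p = 0.124). All 10 values were negative, with a median of -1.43 against -0.04 over all genes tested. Without library 411, 8 passed, all negative, and without SW SVC library 413, Nr4a1 passed (-4.27, edgeR adjusted p = 0.0484). Without library 212 all 10 values were positive and 0 passed. The lone HFD SVC library was again assumed to vary like the other groups. The rise of Ier2 and Fosb from HFD to SW adipocytes is therefore not shown to be particular to that fraction.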

How the data were processed

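The authors used Bowtie2 and RSEM, with mm9 as the build; versions are not given in the sources used here. The deposited expected counts are whole numbers. Of the value columns, 15 matched a group in the labels and 3 were not used here. The labels list 26 records as single or paired runs, spread unevenly over the groups. SW adipocytes had paired runs only, and SW SVCs had both layouts for every replicate. HFD SVC replicates 1 and 3 had single runs only. Whether sequencing runs were merged is not stated, and an effect of run layout was not tested.

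Genes were filtered with filterByExpr (minimum count 10), scaled by TMM and tested with edgeR's robust quasi-likelihood test (4.0.16, R 4.3.3) within adipocytes, within SVCs and over both, with Benjamini-Hochberg adjustment over all genes tested at 0.05. DESeq2 1.42.0, limma-voom 3.58.1, other scalings and filters, and leaving out each library were alternatives; leaving libraries out of the list counts was added after seeing the data. Scripts were tested on simulated data. The text names all 10 members, up to 4 genes past the threshold per other list by size of change, and the 10 genes most like the members. The members and lists were chosen with earlier results of these data known.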

Additional observations from a re-analysis of the deposited data

Results flagged for a closer look

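The change from HFD to SW mice differed between SVCs and adipocytes for genes of the lists beside the 10, by edgeR's interaction term, which 27.1% of all genes tested passed (11.4% higher and 15.7% lower in SVCs). In SVCs it was lower for 9 and higher for 0 of 35 further primary response genes, lower for 4 and higher for 0 of 12 heat shock genes, lower for 7 and higher for 1 of 12 NF-kB inducible genes, and lower for 5 and higher for 4 of 16 upstream factors and kinases. Without HFD SVC library 212, where the lone HFD library is assumed to vary like the other groups, these counts were 3 lower and 0 higher, 3 and 1, 1 and 1, and 3 and 2, with 17.0% of all genes passing. Without library 411 they were 24 and 0, 7 and 0, 10 and 1, and 5 and 6, with 38.5% passing. Among the libraries other than these, leaving out HFD adipocyte library 403 brought the upstream factors and kinases to 4 lower and 2 higher, and SW adipocyte library 408 or 409 or SW SVC library 414 to 5 lower and 2 higher. The 4 with the largest log2 difference in each list, 16 in all, are named here, and that choice left out the higher ones. Among the primary response genes they were Gadd45g (-3.26), Nr4a3 (-2.90), Klf6 (-2.76) and Dusp2 (-2.51). Among the heat shock genes they were Hsp90aa1 (-2.21), Hspd1 (-2.13), Dnaja1 (-1.84) and Hspe1 (-1.16). Among the NF-kB inducible genes they were Il6 (-7.68), Cxcl2 (-5.55), Nfkbiz (-4.44) and Ptgs2 (-4.12), and among upstream factors and kinases Elk4 (-3.56), Mapk8 (-1.53), Creb1 (-1.43) and Rps6ka3 (-1.39). Adjusted p-values ran from 0.00115 (Ptgs2) to 0.0357 (Hspe1). Without HFD SVC library 212, 7 of the 16 passed, and Il6 stood at -0.69 and Cxcl2 at -0.41, whereas Ptgs2 stood at -4.07. Without library 411, 15 passed, all but Hspe1 (-1.002, edgeR adjusted p = 0.0669).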

How the results depend on the processing

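No paired analysis was possible because the columns carry no replicate number of the labels. Of 1410 alternative values for the 10 genes, 1247 kept direction and side of the threshold, 66 lost and 41 gained a call, and 56 changed sign; the cause was not tested. Of the 10, 5 passed in SW against HFD adipocytes with DESeq2 and 1 without a filter. For SVCs against adipocytes in SW mice 1 passed with DESeq2, limma-voom or RLE factors and 2 with only the groups compared, and in HFD mice 1 with limma-voom, 1 without a filter and 0 with only the groups compared.

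In HFD against LFD adipocytes Fosb was at -0.015 with DESeq2, -0.087 with upper-quartile factors and -0.0027 with only the groups compared, and Nr4a1 at -0.076 with limma-voom and -0.068 with upper-quartile factors. With limma-voom, Fosb (0.11), Egr1 (0.49) and Zfp36 (0.023) were positive in SW against HFD SVCs, and Fosb was -0.22 in SVCs against adipocytes of SW mice. Upper-quartile factors moved the 10 values by a median of 0.12 in SW against HFD SVCs and 0.10 in SVCs against adipocytes of HFD mice.

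Leaving out 1 library at a time gave 3 to 5 called genes in HFD against LFD adipocytes, 1 to 5 in SW against HFD adipocytes, 5 to 9 in SW against LFD, 0 to 6 in SW against HFD SVCs, 0 to 1 and 0 to 10 in SVCs against adipocytes of SW and HFD mice, and 0 to 8 for the interaction. In HFD against LFD adipocytes, log2 differences then ran from -0.32 to 0.79 (Fosb), -0.21 to 0.42 (Jun) and -0.30 to 0.37 (Nr4a1).

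In SW against HFD SVCs they ran from -2.09 to 1.44 (Fos), -2.70 to 3.57 (Fosb), -2.11 to 1.55 (Jun), -1.42 to 1.28 (Junb), -1.62 to 3.25 (Egr1), -0.53 to 1.76 (Ier2), -1.34 to 0.0047 (Atf3), -2.80 to 1.87 (Nr4a1), -1.54 to 1.43 (Dusp1) and -1.57 to 1.74 (Zfp36). In SVCs against adipocytes of SW mice they ran from -1.37 to 0.69 (Fosb), -0.79 to 0.76 (Egr1), -0.0079 to 0.56 (Ier2), -0.60 to 1.51 (Nr4a1), -0.11 to 0.29 (Dusp1) and -0.017 to 0.50 (Zfp36).

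In SVCs against adipocytes of HFD mice they ran from -1.49 to 1.81 (Fos), -1.30 to 4.02 (Fosb), -1.28 to 2.16 (Jun), -1.56 to 2.84 (Egr1), -0.76 to 1.98 (Dusp1) and -0.55 to 2.54 (Zfp36). The interaction ran from -2.56 to 0.83 (Fos), -4.43 to 1.66 (Fosb), -2.70 to 0.83 (Jun), -1.98 to 0.59 (Junb), -2.69 to 1.99 (Egr1), -1.80 to 0.35 (Ier2), -1.09 to 0.13 (Atf3), -4.27 to 0.21 (Nr4a1), -1.93 to 0.91 (Dusp1) and -2.31 to 0.87 (Zfp36).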

Other observations

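Of 16 factors and kinases that act on immediate early promoters, 6 rose and 4 fell in HFD against LFD adipocytes (edgeR, adjusted p under 0.05), where 26.5% of all genes tested rose and 25.0% fell, with Rps6ka1, a ribosomal S6 kinase, at a log2 fold change of 1.66, Mkl1, a coactivator of serum response factor, at 1.14, the p38 kinase Mapk14 at 0.90 and the Ets factor Elk4 at -1.85. In SW against LFD mice 3 rose and 1 fell (10.9% and 6.18% of all genes), among them Rps6ka1 (1.22), Mkl1 (0.66) and Elk4 (-0.63). In SW against HFD mice 2 rose and 5 fell (15.6% and 15.9% of all genes), with Elk4 at 1.22 and Mapk14 at -0.64; without HFD library 403, 1 rose and 2 fell.

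Markers of other cell types were also counted in the adipocyte fraction. In HFD against LFD mice, where 26.5% of all genes tested rose and 25.0% fell, 5 of 6 endothelial, 3 of 5 mural, 3 of 5 mesothelial and 5 of 5 erythrocyte markers fell, and of 7 fibroblast and progenitor markers 3 rose and 1 fell. Adipocyte markers fell in 6 of 8 cases and rose in 0. Of 5 neutrophil markers 1 rose and 1 fell, and 0 of 5 T cell and 0 of 4 B cell markers passed with edgeR, with 0 at an unadjusted p under 0.05 in either list. The endothelial count was 2 without HFD library 402 or 403 or LFD library 404 or 405, and 6 of the fibroblast and progenitor markers rose without HFD library 402 and 5 without LFD library 405. In SW against LFD mice, where 10.9% rose and 6.18% fell, 6 endothelial, 3 mural, 2 mesothelial and 3 erythrocyte markers fell; the endothelial count was 0 without LFD library 405 or SW library 407 or 408, 1 without LFD library 404, 2 without SW library 409 and 4 without LFD library 406. The mesothelial and erythrocyte counts also ranged from 0 to 4 and from 1 to 5 over the fits that left out 1 library. In the same comparison 1 of 7 fibroblast and progenitor and 1 of 5 neutrophil markers rose, and 0 of either list fell. Of the T cell, B cell and adipocyte markers 0 passed with edgeR, with 3 of 5, 0 of 4 and 2 of 8 at an unadjusted p under 0.05. In SW against HFD mice, where 15.6% rose and 15.9% fell, 4 of 5 erythrocyte markers rose, in every fit that left out 1 library. Of 8 adipocyte markers 4 rose, or 1 without HFD library 401 or 403 and 2 without SW library 408 or 409. Also 2 of 4 B cell, 1 of 5 T cell and 1 of 5 neutrophil markers rose, of 7 fibroblast and progenitor markers 1 rose and 2 fell, of 5 mural markers 1 rose and 1 fell, and 0 of 6 endothelial and 0 of 5 mesothelial markers passed with edgeR, with 0 and 0 at an unadjusted p under 0.05. Over the fits that left out 1 library, 0 to 2 B cell, 0 to 3 T cell, 0 to 1 neutrophil, 0 to 1 fibroblast and progenitor and 0 to 1 mural markers rose, 2 to 4 fibroblast and progenitor, 0 to 1 mural and 0 to 1 mesothelial markers fell, and 0 to 2 endothelial markers rose.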
